A study of Solanum lycopersicum and Solanum pimpinellifolium with 9 samples.

Results

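The genes described here had a dip at breaker: in cultivated tomato fruit their transcripts stood high at the mature green stage, low at the breaker stage and high again in ripe fruit. A gene was a member when log2(RPKM + 5) in the breaker library lay at least 2 units below mature green and at least 2 units below ripe, with 25 RPKM or more in both of these. RPKM is a read number divided by gene model length and library size. The rule found 145 members among 34727 gene IDs, and among the 4514 IDs at 25 RPKM or more in both mature green and ripe fruit, which could have been chosen. The values of the 3 MoneyMaker fruit libraries chose the members, so those values are given as a description only. The other 6 libraries took no part in the choice.

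Tomato is a climacteric fruit, in which a burst of the gas hormone ethylene starts ripening. At mature green the fruit is full-sized and its plastids still hold chlorophyll. Breaker is the turning point at which chlorophyll is first visibly lost and carotenoids begin to build up, and the ripe stage is the red, soft fruit.

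The series holds 9 libraries of cDNA read by pyrosequencing, 1 per group. MoneyMaker, a cultivar of Solanum lycopersicum, gave grown root, upper stem below the apical meristem, fully expanded leaf of 2 to 3 weeks, complete flower at anthesis without sepals, and fruit at mature green, breaker and ripe. LA0722, an accession of the wild relative S. pimpinellifolium, gave fully expanded leaf of 2 to 4 weeks and ripe fruit. All plants were grown in a greenhouse with 16 h of light and 8 h of dark, with no treatment or genetic change named. The column taken as ripe MoneyMaker fruit carries only the word berry and a number, and was assigned by elimination. The column taken as mature green says mature but not green.

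With 1 library per group no spread between replicates was known, and groups were not tested against each other. How many plants or fruits went into a library is not stated in the labels, and fewer cells of a type and less RNA per cell cannot be told apart. Reads were recovered from the RPKM steps, and the totals they imply ranged from 211201 in LA0722 ripe fruit to 380306 in MoneyMaker leaf. Breaker, at 214610, was shallower than mature green at 346944 and ripe at 270466. On a gene of 1 kb a single read was worth 4.66 RPKM in breaker, 2.88 in mature green and 3.70 in ripe. The deposited table lists gene IDs without names or products, and the reference gene table, of 41476 genes, held 0 of them. The members are therefore given by ID, with no role, and the labelled tissues were not checked against named marker genes.

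In mature green fruit the members stood between 25.1 and 1821 RPKM, with a median of 63.3. At breaker 100 of the 145 were listed at 0 and the highest stood at 113 RPKM. In ripe fruit they stood between 25.7 and 1275 RPKM, with a median of 63.0. Together they took 1.18% of summed RPKM at mature green, 0.0747% at breaker and 1.04% when ripe. Mature green and ripe differed by under 1 log2 unit for 116 members (80.0%) and for 72.2% of the 4369 genes that could have been chosen and were not members, and the median difference over the members was 0.03. The rule set a minimum on both of these levels, so nothing is read from their closeness. In 4 members ripe stood 2 log2 units or more above mature green, and in 2 members as far below. Lower values in breaker than in mature green were found for 11.5% of the genes compared at that step, and higher values in ripe than in breaker for 7.07%. Both together held for 3.21% of the genes that could have been chosen, and nothing is read from these shares, since the rule used the same contrasts.

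**Figure D1:**
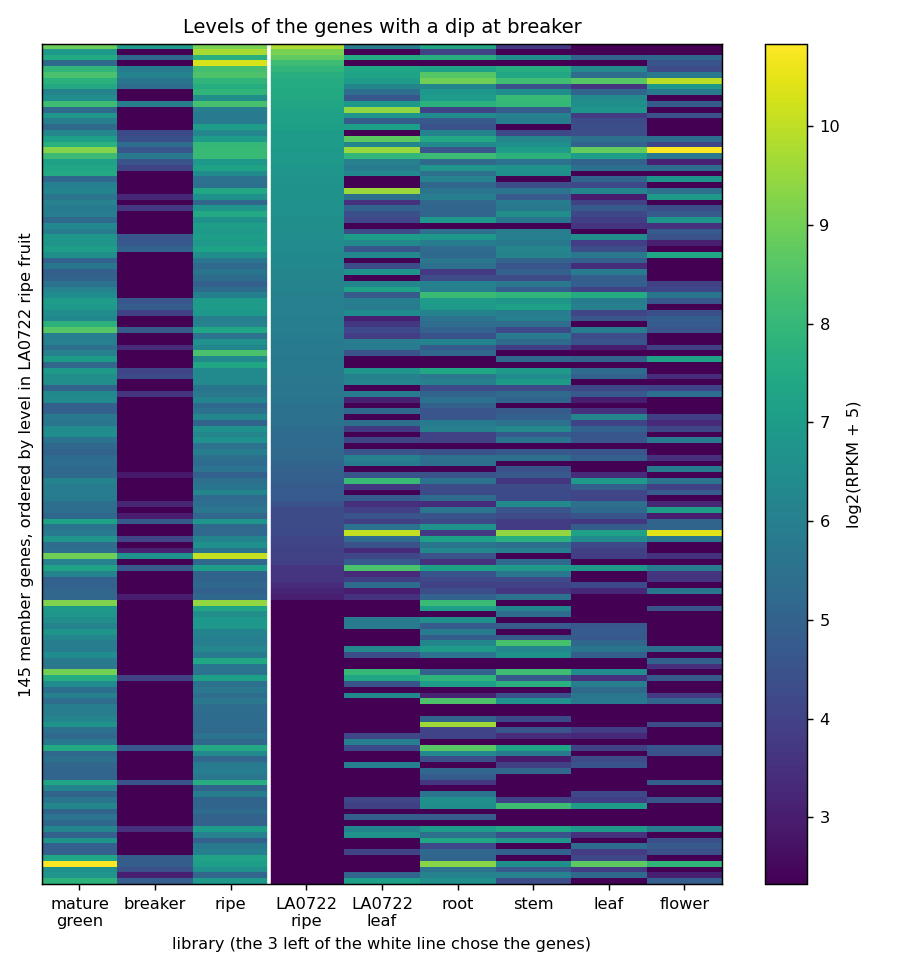
Levels of the 145 member genes, 1 row per gene, as log2(RPKM + 5) in colour, by library. The 3 columns left of the white line chose the genes; rows are ordered by the level in LA0722 ripe fruit, where the lowest 49 rows are listed at 0.

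On the log2(RPKM + 5) scale the largest difference to breaker belonged to Solyc01g086660, an ID of chromosome 1 by the numbering of tomato gene IDs. It stood at 580 RPKM in mature green (35 reads), at 0 in breaker and at 701 RPKM in ripe fruit (33 reads). A count of 0 in breaker allowed up to 80.3 RPKM on its short inferred coding length of 174 nt, 3 reads being the floor used per library. Mature green was thus 7.22-fold and ripe 8.73-fold above the breaker floor, with lower bounds of the exact intervals at 5.57 and 6.71. Elsewhere it was listed above 0 in root alone, at 272 RPKM, and at 0 in stem, leaf, flower and both LA0722 libraries. Next on that scale was Solyc12g088840, which went from 120 RPKM in mature green fruit to 0 in breaker and back to 154 RPKM in ripe fruit. These levels rested on 11 reads each, and mature green and ripe were 2.27-fold and 2.91-fold above the breaker floor. The lower bounds of the exact intervals were 1.55 and 1.99. The rank of a gene at 0 depends on the pseudocount, and these bounds do not order it against members with reads in breaker. It stood at 134 RPKM in root, 67.4 in stem and 17.7 in flower, and was listed at 0 in leaf and in both LA0722 libraries. Both genes were therefore present in root and absent from the counts of the wild accession. In LA0722 ripe fruit a count of 0 allowed up to 81.6 RPKM for Solyc01g086660 and 53.8 RPKM for Solyc12g088840.

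The 2 members with the most reads in mature green plus ripe fruit were listed above 0 in breaker, so that their folds could be measured. Solyc11g069700 went from 498 RPKM in mature green fruit to 97.1 at breaker and 1089 in ripe fruit, on 232, 28 and 396 reads. Mature green was 5.13-fold above breaker (95% exact interval 3.45 to 7.88) and ripe 11.2-fold (7.65 to 17.1). Outside these libraries it was low: 17.6 RPKM in root, 0 in stem, 9.78 in leaf and 6.96 in flower, and in LA0722 12.4 in leaf and 10.6 in ripe fruit. Its level was thus high in MoneyMaker fruit and low in ripe fruit of LA0722, where 3 reads were found. Solyc05g005460 went from 383 RPKM in mature green fruit to 21.4 at breaker and 161 in ripe fruit, on 232, 8 and 76 reads. Mature green was 17.9-fold above breaker (8.95 to 42.0) and ripe 7.54-fold (3.64 to 18.1). It was listed in all 9 libraries, at 27.1 RPKM in root, 13.6 in stem, 54.2 in leaf and 18.8 in flower, and in LA0722 at 13.3 in leaf and 57.0 in ripe fruit. Breaker lay within the range of the 4 MoneyMaker organs for this gene.

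**Figure D2:**
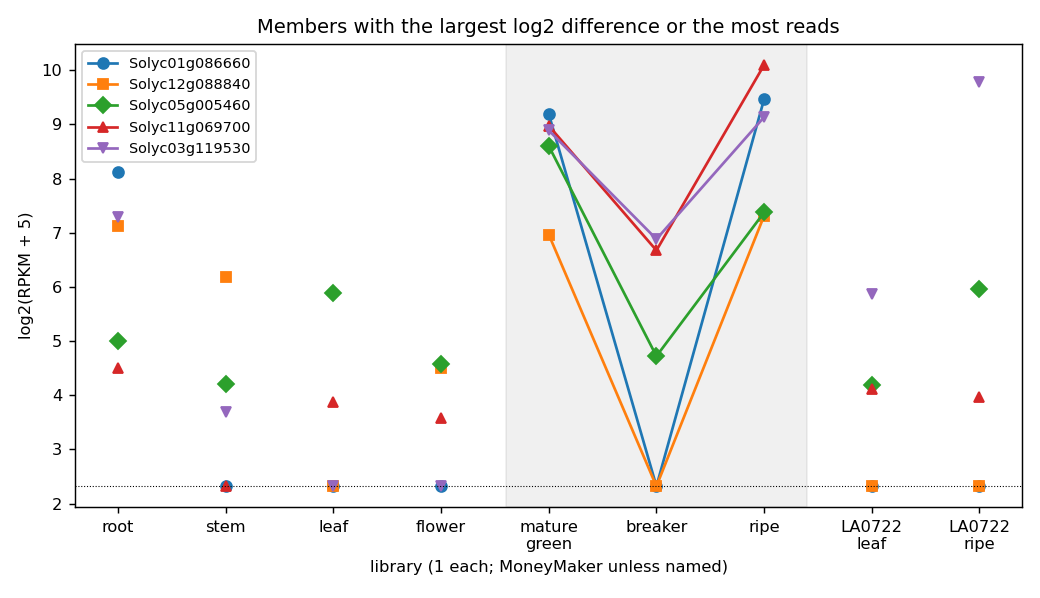
Levels of 5 members as log2(RPKM + 5) in each of the 9 libraries: the 2 with the largest log2 difference to breaker and the 3 with the most reads in mature green plus ripe fruit. Points are single libraries, lines join the 3 MoneyMaker fruit stages (shaded), and the dotted line marks 0 RPKM; LA0722 ripe fruit spans from 0 to 878 RPKM among these genes.

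Read numbers limited how many of the dips could be told from counting error. With 1 library per group the intervals cover counting error only. PCR-amplified reads without molecular identifiers are not independent molecules, so the intervals can be too narrow even for that error. Had breaker held the lower of the mature green and ripe levels, the median member would have had 4.33 reads there, against 11.9 for the 4369 genes that could have been chosen and were not members. Of the 100 members listed at 0 in breaker, 52 had a mature green or ripe level at or below what 0 reads allow, so that for them a dip was not detectable at this depth. For the other 48 both levels lay above it. Of the 45 members listed above 0, breaker rested on 1 read in 20, on 2 or 3 reads in 11 and on more in 14. Every gene that could have been chosen and was listed at 0 in breaker became a member by the arithmetic of the rule.

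For 62 members the exact 95% interval of the ratio to breaker lay above 1 for mature green and for ripe alike. The same reads chose the members for large ratios, so the intervals do not hold at 95% for members, and this number is a description. For 52 members neither interval did. Over all 4514 genes that could have been chosen, both intervals lay above 1 for 293, or 6.49%, and both lay below 1, a peak at breaker, for 239, or 5.29%. The minimum of 25 RPKM was set on mature green and ripe only, which keeps out peaks with low levels at these stages. Dips and peaks were thus not counted on equal terms, and nothing is read from how near their numbers were. The intervals are not adjusted for the number of genes, and 231 of the 293 genes fell short of the rule of size.

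**Figure D3:**
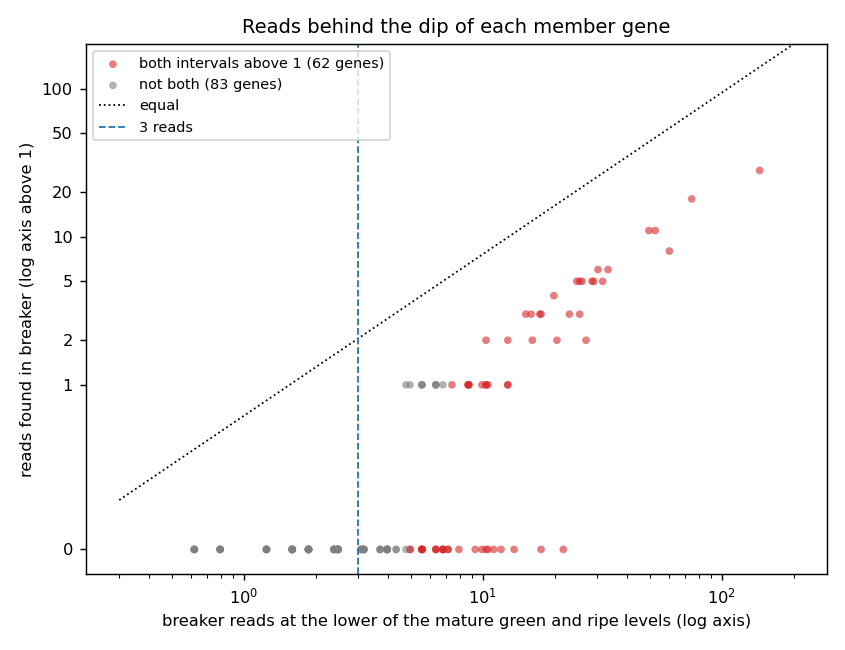
Reads found in breaker (vertical, logarithmic above 1) against the reads breaker would have held at the lower of the mature green and ripe levels (horizontal, logarithmic), for the 145 members. The dashed line marks 3 reads; 52 members lie at or left of it, and the 62 members with both intervals above 1 lie to its right.

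Members had short gene models by the inferred lengths. The median inferred coding length was 399 nt, against 771 nt for the eligible non-members, the 4369 genes at 25 RPKM in mature green and ripe fruit that did not pass the rule. Lengths under 300 nt were found for 55 members (37.9%) and for 10.2% of the eligible non-members. The gap was smaller among genes with 10 or more reads in both mature green and ripe. There the medians were 783 nt for 51 members and 912 nt for 3271 non-members. The 62 members with both intervals above 1 had a median of 762 nt, and the other 83 a median of 267 nt. These lengths and the intervals are not independent: reads scale with length at a given RPKM, and a length was taken as the shortest that gave whole reads, which can come out too short for genes listed in few libraries. Nothing is therefore read from the split by intervals, and the part of length in the choice of members was not tested.

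The 14 members with more than 3 reads in breaker, a group formed after the values were seen, gave the most precise folds. Their mature green level was 4.16-fold to 17.9-fold above breaker, with a median of 5.10, and their ripe level 4.94-fold to 11.2-fold, with a median of 5.71. The lowest bound of any of their intervals was 1.75. These folds are a description, since the rule chose the genes on them.

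The rule lies in a dense range. The 3 members nearest to it had smaller differences of 2.01, 2.02 and 2.04 log2 units, and the 3 genes just outside had 1.98, 1.97 and 1.96. There were 21 members under 2.2 units and 21 non-members at 1.8 or more. By level, the lowest members stood at 25.1 and 25.2 RPKM in their lower stage, and the highest of 97 genes kept out by level alone at 24.6 and 24.2.

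Ripe fruit of LA0722, a library the rule did not use, held the members at mixed levels. There 75 of 145 members stood at 25 RPKM or more, or 51.7% (exact 95% interval 43.3 to 60.1), against 78.9% of the eligible non-members. The median was 29.5 RPKM, against 68.6 RPKM in those non-members. In this library 49 members were listed at 0, or 33.8%, against 4.81%. Members also had fewer reads in MoneyMaker fruit. With 10 or more reads in both mature green and ripe, 33 of 51 members (64.7%, 50.1 to 77.6) reached 25 RPKM in LA0722 ripe fruit, against 83.2% of 3271 non-members under the same condition. Of these 51 members 10 were listed at 0 (19.6%), against 1.86% of those non-members. In percentage points the gap to the non-members was narrower, but still present, when genes with few reads were left out. That condition was set on mature green and ripe reads, libraries the rule used, and the part of read number in the gap was not tested.

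Against MoneyMaker ripe fruit, 57 members were lower in LA0722 by 2 log2 units or more and 0 were higher. All 49 members listed at 0 in LA0722 ripe fruit are among the 57 by arithmetic. For some of them 0 reads allow more than the MoneyMaker ripe level, so that a lower level was not detectable. Solyc05g032710 stood at 88.0 RPKM on 2 reads in MoneyMaker ripe fruit, and 0 in LA0722 ripe fruit allows up to 169 RPKM. Such members were not counted apart. Over all genes compared, 14.1% were lower and 9.09% higher. The eligible non-members, which also had to reach 25 RPKM in MoneyMaker ripe fruit, share that part of the rule only: of these 13.6% were lower and 1.12% higher. With 10 reads in both stages 14 of 51 members were lower (27.5%), against 11.8%. The median difference, LA0722 minus MoneyMaker, was -1.00 over the members and -0.50 over the eligible non-members. MoneyMaker ripe fruit took part in the rule, which leans these differences downward in members and non-members. Members also had to stand at least 2 log2 units above breaker in ripe fruit, which can lean theirs further. The size of this lean was not tested, so nothing is read from the gap between members and non-members here.

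LA0722 ripe fruit stood above MoneyMaker breaker fruit by a median of 1.75 log2 units over the members, against -0.23 over the eligible non-members. Since members were chosen for low breaker values, this difference leans upward. By distance on the log2 scale, LA0722 ripe fruit was nearer to the breaker level than to the ripe MoneyMaker level for 61 of 145 members (42.1%), against 47.7% of the eligible non-members. Among the 51 members with 10 reads in both stages this held for 17 (33.3%), against 48.0% of the 3271 non-members. The breaker and ripe values in this measure were used by the rule, and no more is read from it. Across the 145 members the Spearman correlation of ripe levels between the species was 0.40, and across the eligible non-members 0.65; genes share library and depth and are not independent.

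**Figure D4:**
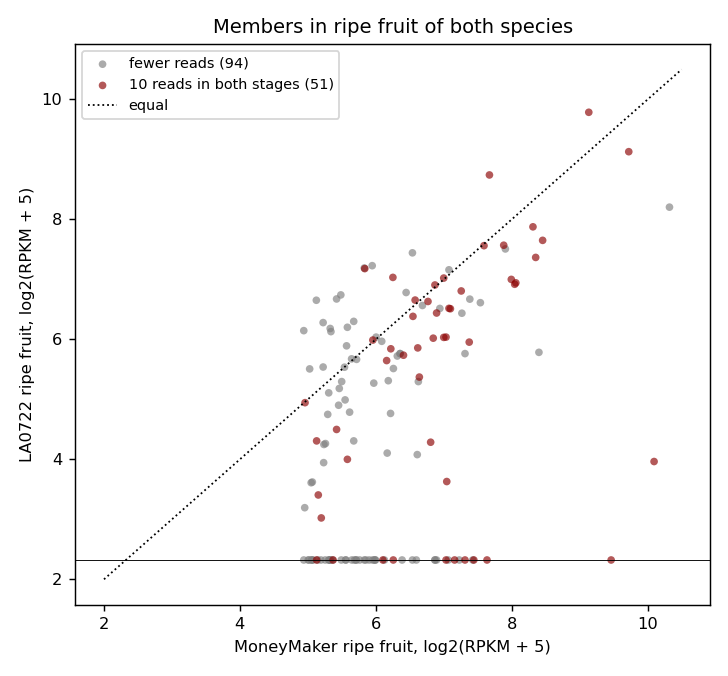
Level of each of the 145 members in LA0722 ripe fruit (vertical) against MoneyMaker ripe fruit (horizontal), both as log2(RPKM + 5), with the 51 members holding 10 or more reads in mature green and in ripe in dark red. The solid line marks 0 RPKM, where 49 members lie, 10 of them dark red.

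The extremes of that comparison were picked after their values were seen. Solyc03g119530 had the highest level of any member in LA0722 ripe fruit, 878 RPKM (138 reads). In MoneyMaker it went from 469 RPKM in mature green fruit to 113 at breaker and 557 in ripe fruit, on 121, 18 and 112 reads, so that mature green was 4.16-fold above breaker (2.52 to 7.25) and ripe 4.94-fold (2.99 to 8.63). It stood at 151 RPKM in root, 7.98 in stem, 0 in leaf and flower, and 53.6 in LA0722 leaf. This gene was high in ripe fruit of both species. Solyc07g054790 was second, with 555 RPKM in LA0722 ripe fruit (32 reads) against 116 in mature green fruit, 0 at breaker and 840 in the ripe fruit of MoneyMaker. Its 11, 0 and 62 reads put ripe 16.4-fold and mature green 2.27-fold above the breaker floor. The lower bounds of the exact intervals were 12.9 and 1.55. Apart from 10.8 RPKM in root, a single read, it was listed at 0 in the 3 other MoneyMaker organs and in LA0722 leaf. Its highest level was in ripe fruit in both species.

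At the other end were members listed at 0 in LA0722 ripe fruit, of which the following pair had the most reads in MoneyMaker fruit among those with 10 or more reads in both stages. Solyc08g067340 went from 155 RPKM in mature green fruit to 18.4 at breaker and 194 in ripe fruit, on 41, 3 and 40 reads. It was listed at 0 in both LA0722 libraries, which allows up to 18.6 RPKM in ripe fruit, and at 0 in stem and leaf, with 7.77 RPKM in root and 24.6 in flower. It was thus detected in MoneyMaker only. Solyc07g049660 went from 67.8 RPKM in mature green fruit to 6.64 at breaker and 126 in ripe fruit, on 33, 2 and 48 reads. It was present in root at 124 RPKM, stem at 167, leaf at 118, flower at 56.6 and LA0722 leaf at 66.3, but at 0 in LA0722 ripe fruit, which allows up to 10.1 RPKM. For this gene breaker fruit and the wild ripe fruit were the 2 libraries low among 9.

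In leaf the species could be compared free of the rule. Of 77 members with 25 RPKM in either leaf library, 22 were higher in LA0722 leaf by 2 log2 units or more (28.6%) and 11 lower (14.3%). Over all genes compared 17.1% were higher and 15.2% lower, and over the eligible non-members 14.6% and 8.67%. With 10 reads in both fruit stages 10 of 35 members were higher (28.6%) and 0 lower, against 13.8% and 7.11% of the non-members. The balance depended on scaling: median-ratio size factors gave 20 members higher and 21 lower of 85 compared (non-members 6.43% and 14.4%), whereas upper-quartile scaling gave 23 and 15. In LA0722 leaf 58 members reached 25 RPKM (40.0%, 32.0 to 48.5), and in MoneyMaker leaf 49 (33.8%, 26.2 to 42.1). Among non-members these shares were 69.0% and 61.7%.

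The order of the 4 MoneyMaker organs outside fruit depended on scaling. On the values as deposited, in root 90 members reached 25 RPKM (62.1%, 53.6 to 70.0), in stem 74 (51.0%, 42.6 to 59.4) and in flower 32 (22.1%, 15.6 to 29.7). The shares among the eligible non-members were 80.3% in root, 80.8% in stem and 42.0% in flower, so that in each of the 6 libraries outside the rule the members' share lay below that of the genes that could have been chosen and were not. With upper-quartile scaling, and members chosen again, root and stem each held 55.1%, flower 45.9% and leaf 44.9% of the members, and with median-ratio size factors root and stem each held 58.4%, leaf 54.5% and flower 51.9%. The share in flower was thus more than 2-fold higher under these scalings than the 22.1% of the deposited values. The eligible non-members moved with it, to 65.7% and 72.1% in flower, and under each of the 3 scalings tried the members' share stayed below theirs in all 6 libraries. The median member stood at 34.2 RPKM in root, 25.8 in stem, 13.5 in leaf and 5.62 in flower. With 10 reads in both fruit stages the shares were 74.5% of members against 83.9% of non-members in root, 64.7% against 84.7% in stem, 47.1% against 66.9% in leaf and 27.5% against 45.3% in flower. The interval of the 51 members overlapped the interval of the non-members in root, and lay below it in stem, leaf and flower. The intervals run over genes, which are not replicates of a condition.

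**Figure D5:**
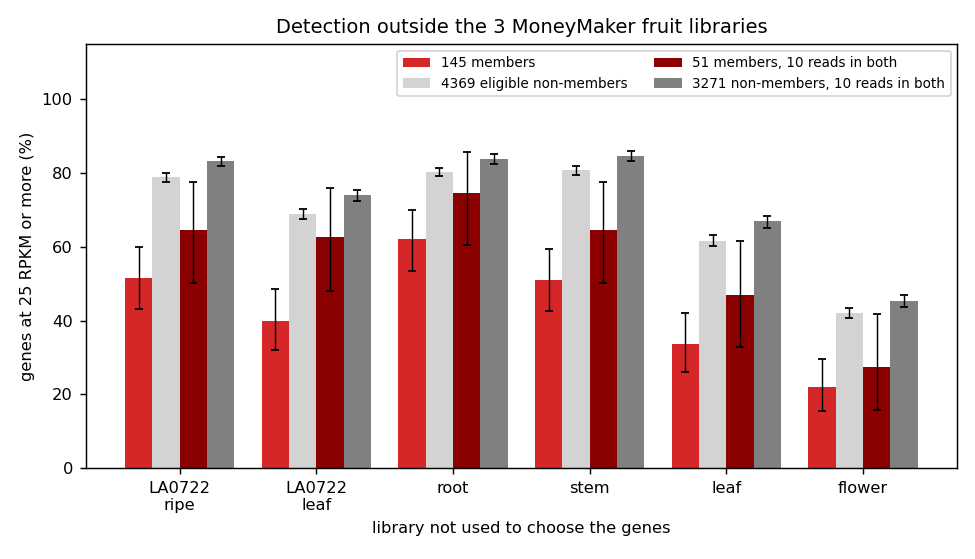
Share of genes at 25 RPKM or more in each of the 6 libraries not used by the rule, for members and for eligible non-members, with and without the condition of 10 reads in both fruit stages. Bars start at 0, and whiskers are exact 95% binomial intervals over genes; members lie below non-members in every pair of bars.

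Members ranged from genes below 25 RPKM in all 4 organs outside fruit to genes at that level in each of them. At 25 RPKM, 33 members reached the level in none of the 4 organs (22.8%), 36 in 1, 35 in 2, 25 in 3 and 16 in all 4 (11.0%). Among the eligible non-members 7.64% reached it in none and 31.2% in all 4. With 10 reads in both fruit stages these shares were 15.7% and 19.6% of members, against 6.11% and 36.2% of non-members. A value below the level was not absence: 8 members were listed at 0 in all 4 organs (5.52%), against 0.435% of the eligible non-members. All 6 libraries outside the rule held 9 members at that level (6.21%), against 25.6% of the non-members. There were 5 members listed at 0 in all 6 (3.45%), against 0.0916% of the non-members, and 0 of the 51 members with 10 reads in both fruit stages. Where a member was listed in any organ, its highest organ on the deposited values was root for 61 (42.1% of all members, against 40.0% of the eligible non-members), stem for 43 (29.7% against 39.2%), flower for 19 (13.1% against 7.99%) and leaf for 14 (9.66% against 12.4%). For 43 members (29.7%) an organ stood above both the mature green and the ripe fruit level, as it did for 35.9% of the eligible non-members.

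The highest organ levels belonged to few genes, again picked after their values were seen. Solyc00g174340 led the members in flower with 1745 RPKM and in leaf with 444, and stood at 727 RPKM in LA0722 leaf. In fruit it had 606 RPKM at mature green, 19.4 at breaker, 262 in ripe and 118 in LA0722 ripe, and in root and stem at 18.5 and 130 RPKM. Its breaker value rested on 2 reads; mature green was 31.2-fold higher (8.43 to 261) and ripe 13.5-fold (3.46 to 116). Breaker was as low as root for this gene. Solyc01g066970 led the members in root with 774 RPKM (84 reads). Its fruit levels were 98.8 RPKM at mature green, 0 at breaker and 34.6 when ripe, with 14.6 RPKM in flower and 0 in stem, leaf and both LA0722 libraries. The ripe value rested on 3 reads, at the floor, so its return in ripe fruit was not detectable at this depth.

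Other genes that fell at breaker were set beside the members. There were 789 genes lower in breaker than in mature green fruit by the same rule of size that were not members, and 103 of them reached 25 RPKM in ripe MoneyMaker fruit. In LA0722 ripe fruit 149 of them reached 25 RPKM (18.9%, 16.2 to 21.8), against 51.7% of the members, and their median was 0. The 368 genes higher in ripe than in breaker that were not members reached it in 46.2% (41.0 to 51.4). The members' share was thus nearer to that of the genes that rose. The groups were chosen partly on the MoneyMaker ripe level, which goes along with the LA0722 ripe level across genes, and no test of the difference was made.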

How the data were processed

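The authors deposited RPKM values for 34727 gene IDs in 9 columns with 2 decimals, computed by them from pyrosequencing reads of PCR-amplified cDNA, per the labels' protocols. HTSeq is named in the submitters' processing notes; its version and the aligner, build, annotation and filters used were not given in the sources used here. There were 0 columns without a sample. Whole reads were recovered: library steps came from ratios of low values, and each gene took the shortest length, in multiples of 3 nt (an inference, hence coding length), that gave whole reads. All 23089 IDs listed above 0 had a solution, and 100.0% of 128956 values came within 0.05 of a whole read, which the recovery itself required. Recovered reads summed to 95.7% to 99.9% of the implied totals; for the 24 members listed in fewer than 5 libraries the recovered reads can be too low by a whole factor. Recovery and rule were tested on simulated data. For the rule, large dips were planted only in genes with more mature green plus ripe reads than most members had. That test therefore does not cover members with few reads.

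A pseudocount of 5 RPKM makes a log2 difference understate the fold of low genes. Ratios of reads have exact conditional binomial intervals and shares exact Clopper-Pearson intervals, at 95%. A fold against 0 used a floor of 3 reads in that library and leaves out counting error in the other library. Genes named by rule were the 2 with the largest smaller difference and the 2 with the most reads. The planned lists of gene products were not run, because the IDs were not annotated. Members, lists and comparisons were chosen with earlier results of these data known. Alternatives were the pseudocount, the rule of size, the level, 3 scalings and 2 conditions on reads. Python 3.11.15, numpy 2.4.6, scipy 1.17.1, pandas 2.3.3 and matplotlib 3.10.9 were used.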

Additional observations from a re-analysis of the deposited data

How the results depend on the processing

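No paired analysis was possible because each group holds 1 library, and no library could be left out for the same reason. Of 96 values recomputed under 12 alternatives, 51 stayed within the interval of the reported value (counts within 1.5 times) and 45 moved beyond it. Of these values 84 are counts or shares, which cannot change sign; the median difference kept its sign under all 12 alternatives. The cause was not tested, beyond what the alternatives change by construction. The number of members, 145 as reported, was 32 with a pseudocount of 20 RPKM, 482 and 53 with rules of 1 and 3 log2 units, 242 with a level of 10 RPKM and with no minimum level, 31 with a level of 100 RPKM, 77 with median-ratio size factors, 51 with 10 reads in both stages and 62 with both intervals above 1. Upper-quartile scaling gave 98 members, 97 of them among the 145, and all 77 under median-ratio size factors were among them. These scalings raise breaker against mature green by 0.26 and 0.25 log2 units, and shift it against ripe by -0.07 and 0.11. They also change which genes reach 25 RPKM: the eligible non-members numbered 3867 and 3505 under them, against 4369 as deposited. The part of each in the lower number of members was not tested.

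In the settings with a level of 10 or 100 RPKM, the shares below were counted at that level too. In all other settings they were counted at 25 RPKM. A level of 10 RPKM and no minimum level gave the same 242 members, so their shares differ only in where they were counted. The share of members at the level in LA0722 ripe fruit, 51.7% as reported, was 68.8% with a pseudocount of 20 RPKM, 64.9% with a rule of 1 unit, 40.9% with no minimum level, 64.7% with 10 reads and 62.9% with both intervals above 1. In LA0722 leaf it was 57.3% with a rule of 1 unit, 50.4% with a level of 10 RPKM, 62.7% with 10 reads and 59.7% with both intervals. In root it was 71.9% with a pseudocount of 20 RPKM, 70.1% with a rule of 1 unit, 79.8% with a level of 10 RPKM, 52.9% with no minimum level, 74.5% with 10 reads and 71.0% with both intervals. In stem it was 62.5%, 64.1%, 66.9% and 41.3% under the same first 4 settings, 32.3% with a level of 100 RPKM, 64.7% with 10 reads and 61.3% with both intervals. In MoneyMaker leaf it was 42.1% with a rule of 1 unit, 52.5% and 16.1% with levels of 10 and 100 RPKM, 25.6% with no minimum level, 44.9% and 54.5% with upper-quartile and median-ratio scaling, 47.1% with 10 reads and 43.5% with both intervals. In flower it was 36.0% and 12.9% with levels of 10 and 100 RPKM, 45.9% and 51.9% with upper-quartile and median-ratio scaling. The median of LA0722 ripe fruit minus breaker, 1.75 as reported, was 0.96 and 2.74 with rules of 1 and 3 units. Over the same members, and added after seeing the data, the number lower in LA0722 than in MoneyMaker ripe fruit was 57 as reported and 45 to 54 under the 3 scalings, with 0 higher throughout. Under the 3 scalings 10.7% to 11.9% of the eligible non-members were lower and 1.62% to 1.99% higher. MoneyMaker ripe fruit took part in the rule, so nothing is read from the lack of higher members. The shares of non-members under these scalings were also added after seeing the data.

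Depth sets the limits: at 1 kb the floor of 3 reads was worth 14.0 RPKM in breaker, and 108 members would have had under 10 breaker reads at their lower fruit level.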

Other observations

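By the numbering of tomato gene IDs, in which consecutive models usually differ by 10, 6 pairs of members lay within 30 of each other. Such pairs were not counted among the genes that could have been chosen, so nothing is read from their number. The ID next in number to the member with the largest log2 difference to breaker was itself a member, at 48.8 RPKM in mature green fruit, 0 in breaker and 167 in ripe, on 3, 0 and 8 reads, and also listed at 0 in both LA0722 libraries. The second highest member in LA0722 ripe fruit, Solyc07g054790, had a member within 20 of its number, at 61.0 RPKM in mature green, 0 in breaker, 333 in ripe and 50.1 in LA0722 ripe fruit. Whether such neighbours are near-identical copies that share reads was not tested. By ID, chromosomes 1 and 6 held the most members, 20 and 18, or 13.8% and 12.4%, against 14.2% and 9.42% of the genes that could have been chosen. These pairs and counts were picked after the values were seen.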
